A study of Mus musculus with 30 samples.

Results

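Among the 7 hippocampus libraries of male mice reared in social isolation (SI), those of animals 25, 33 and 39 were rich in short transcripts and poor in long ones. They were chosen on measured values, the share of counts from ribosomal protein genes and the level of long transcripts, so the 3 libraries are described here against the other 4 SI males (animals 7, 8, 27 and 38) without a test of that contrast. They are 3 of 7 SI males and 3 of the 30 libraries of the series. The nearest libraries on either side of the division were SI male 39, with 3.52% of its counts in ribosomal protein genes, and SI male 27, with 1.94%.

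PolyA-selected RNA was sequenced from the hippocampus of adult C57BL/6J mice, 1 animal per library; no transgene or drug is named for any group. SI animals (7 males, 8 females) were housed singly from weaning until adulthood, and group-housed controls (GH; 8 males, 7 females) shared cages over the same period. The study asked how isolation after weaning alters hippocampal gene expression. Integrity of the RNA was assessed before sequencing, but a value for each library is not given in the sources used here.

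Ribosomal protein genes, the subunits of the respiratory chain and the proteasome subunits are among the shortest and most abundant messenger RNAs of any cell, and many ribosomal protein messengers carry a 5′ terminal pyrimidine tract through which their translation is controlled. Neurons in addition use very long messengers for ion channels, synaptic scaffolds and the membrane skeleton. In polyA-selected libraries the level of a long transcript depends on how intact it is as well as on how much of it the cell makes, because a fragment without its polyA tail is lost.

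Total counts were 25609585 in SI male 25, 24019553 in SI male 33 and 18809307 in SI male 39. SI males 7, 8, 27 and 38 had 48046540, 19349259, 58232296 and 28047198, GH males had 33433048 to 66575824, and all but the shallowest of the females had more than SI male 25. The 3 libraries were among the shallower ones, as was SI male 8, and the part of depth in the differences was not tested. The 3 libraries detected 17085 to 17148 of 17477 genes, and the other 4 detected 16987 to 17388. No pair of SI males agreed within sampling noise, with a chi-square per degree of freedom of 15.1 or more in all 21 pairs. Levels below are log2 CPM (counts relative to library size) after TMM scaling, for 15833 genes that passed a filter on low counts in males, and a difference is the mean of the 3 minus the mean of the 4 on that log2 scale. A gene is called higher or lower when the 3 libraries all lie above or all below the 4.

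By this count 4351 genes were higher in the 3 libraries (27.5% of genes) and 4623 were lower (29.2%), with a median difference over all genes of -0.01. The difference exceeded 1 in 1528 genes and was below -1 in 1186 genes. Since the choice of libraries rests on the same values, these shares serve as the background for the gene groups below and not as evidence. With 3 libraries against 4, the smallest two-sided p that an exact rank test could give is 0.0571, and no such test was run. When libraries were scaled on total counts alone, the median over all genes became -0.13 and the counts became 3649 higher and 5326 lower, so that 40.7% of the genes without overlap were higher, against 48.5% under TMM scaling.

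Values of the 3 libraries were also set beside those of GH males, again as a description, since the 3 were picked on measured levels. All 3 lay above all 8 GH males in 4502 genes (28.4%) and below all 8 in 4767 genes (30.1%). The other 4 SI males lay above all 8 GH males in 19 genes (0.12%) and below them in 10 genes (0.0632%). Numbers of libraries differ between these counts, and fewer libraries clear the 8 controls more easily.

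Transcript length ordered the differences. The slope of a library's level on log2 transcript length, measured against the mean of the GH animals of its sex, was -0.50 in SI male 25, -0.48 in SI male 33 and -0.40 in SI male 39. It was -0.13 in SI male 38, -0.04 in SI male 27, 0.05 in SI male 8 and 0.13 in SI male 7. GH males ranged from -0.10 to 0.12 and females from -0.17 to 0.11, so the 3 libraries lay outside the range of all others and SI males 38 and 7 lay just outside that of GH males, on opposite sides. Without ribosomal protein and respiratory chain genes the 3 slopes remained between -0.49 and -0.39. Over 15137 genes with a known length the difference and log2 length had a Pearson's r of -0.56, a description across genes, which are not independent replicates. With GC content r was -0.04 and with mean level -0.08.

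**Figure D1:**
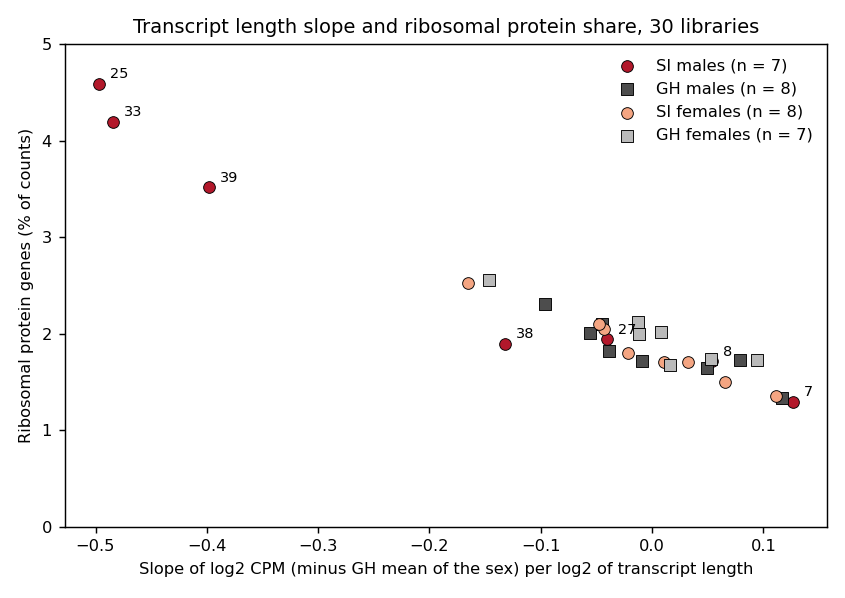
Ribosomal protein share of counts (percent, y axis) against the slope of level on log2 transcript length (x axis, log2 CPM per doubling of length) for each of the 30 libraries, 1 point per animal, marked by group. SI males 25, 33 and 39 sit alone at 3.52% to 4.59% and slopes of -0.50 to -0.40, while all other libraries lie at or below 2.55%.

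Split by length into 10 classes of about equal size, the genes went from higher to lower with no break in the order. In the shortest class, with a median length of 939 bases, the median difference was 0.99, and 1114 of 1514 genes were higher and 55 lower. In class 5, at 2880 bases, the median was -0.02. In the longest class, at 7788 bases, the median was -0.71, and 59 of 1513 genes were higher and 990 lower. The shortest 20% of genes took 29.5% to 32.8% of all counts in the 3 libraries, 16.7% to 22.6% in the other 4 and 17.0% to 22.6% in GH males. The longest 20% took 15.4% to 16.2%, 20.8% to 26.1% and 22.2% to 26.2%.

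**Figure D2:**
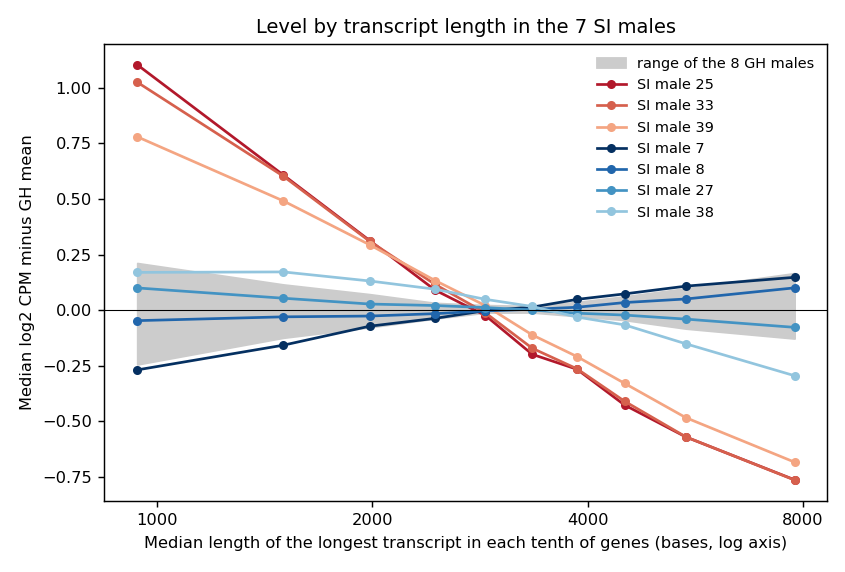
Median log2 CPM minus the mean of the GH males (y axis) in each of 10 classes of genes by transcript length (x axis, median length of the class in bases, log axis), with a line for each of the 7 SI males and a grey band for the range of the 8 GH males. SI males 25, 33 and 39 leave the band at both ends. SI male 38 leaves it by less in the same direction, above in classes 2 to 5 and below in the longest classes. SI male 7 leaves it by less in the opposite direction, below in classes 1 and 2 and above in classes 7 to 9.

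GC content made little difference among short genes and more among long ones. In the shortest 20% of genes the median difference was 0.80 in genes of low GC content, 0.79 at middle and 0.74 at high GC content. In the longest 20% it was -0.44, -0.72 and -0.81. Long, GC-rich transcripts were thus the lowest class in the 3 libraries, with 492 of 616 genes lower and 17 higher.

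**Figure D3:**
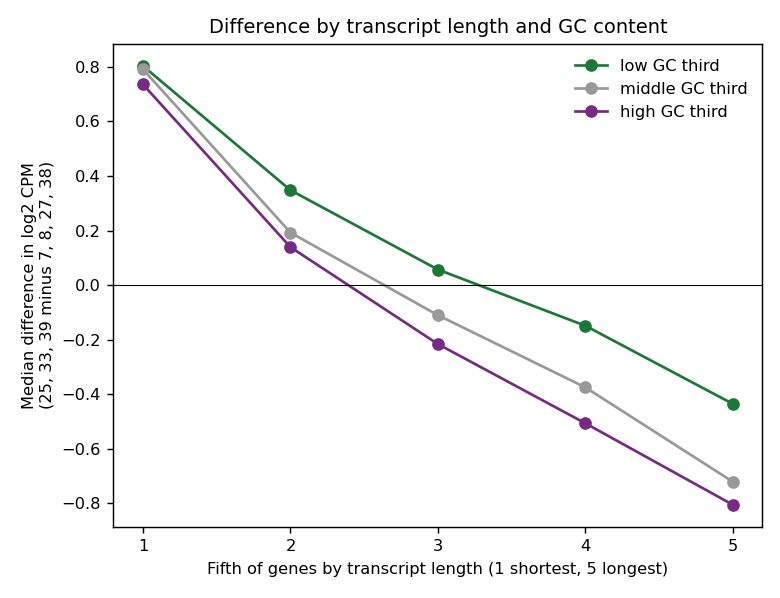
Median difference in log2 CPM (mean of SI males 25, 33 and 39 minus mean of SI males 7, 8, 27 and 38) by 5 classes of transcript length (1 shortest, 5 longest), with a line for each of 3 classes of GC content. The lines lie close together in class 1 (0.74 to 0.80) and apart in class 5 (-0.81 to -0.44).

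Within the 3 libraries SI male 39 stood apart from the other members. SI male 39 was the one nearest to the other 4 in 73.8% of the higher genes and in 68.4% of the lower genes. For SI male 33 these shares were 13.8% and 18.4%, and for SI male 25 they were 12.5% and 13.5%. Of the other 4, SI male 38 was nearest to the 3 in 48.2% and 50.0%. Among the 10 genes with the largest positive difference at a mean of at least 5 log2 CPM, the order from the highest was 25, 33, 39 in 10 of 10, and among the 10 with the largest negative difference the order from the lowest was the same in 10 of 10. SI male 38 was the lowest of the other 4 in 9 of those 10. Genes picked for large differences favour such an order, so it is a description of these genes and not of all genes.

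Cytosolic ribosomal proteins, which build the translating ribosome, were the group with the largest median difference among the function lists. Of 82 measured, 80 were higher and 1 was lower, with a median difference of 1.42 against -0.01 over all genes. Their mean level was 8.87, 8.73 and 8.41 log2 CPM in SI males 25, 33 and 39. In SI males 7, 8, 27 and 38 it was 6.92, 7.34, 7.51 and 7.46, and in GH males 6.92 to 7.74. These genes helped to choose the libraries, so their direction is a description.

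Rpl13a, a protein of the large subunit and one of the most abundant of the list, was at 10.94, 10.80 and 10.50 log2 CPM in the 3 libraries (25, 33, 39). It was at 8.79, 9.46, 9.61 and 9.50 in the other 4 (7, 8, 27, 38). Rps24, a protein of the small subunit and the list's member with the largest difference, was at 10.08, 9.78 and 9.30 against 7.42, 7.78, 8.21 and 7.89. In both genes the lowest of the 3 lay above the highest of the 4. Rplp1, a protein of the stalk that recruits elongation factors, differed by 1.65 and Rpl3, which lies near the peptidyl transferase centre, by 0.92. Rpl24 was the member that was lower, by -0.83 (4.25, 4.36 and 4.76 against 5.54, 5.52, 5.23 and 4.84), and its longest annotated transcript, at 4999 bases, is longer than those of the other members named here. Rpl10 overlapped between the groups, at 6.31, 6.41 and 6.31 against 5.74, 6.43, 6.13 and 5.55. Many ribosomal protein genes have near-identical retrocopies, among them Rps27rt, a retrogene of Rps27, so reads of single members may be shared with copies.

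The pyrimidine tract of ribosomal protein messengers lies at the start of the transcript, and the windows below show the annotated start of members the values turn on. Each runs from 15 bases before the annotated RefSeq start to 15 bases from it on (build GRCm38.p6, 5′ to 3′ on the strand of the gene), with the letters CTTTC, a start common in this class, in capitals. Rpl13a and Rps24 were described above, and Rpl38, Rplp2 and Fau were picked after their values were seen as the members with these letters and the largest differences (1.75, 1.74 and 1.71). The capitals begin at the annotated start in Rpl38 and Rplp2 and further on in Rpl13a and Fau, and Rps24 has none. The windows cover the promoter edge and the first bases of the 5′ untranslated exon.
Rpl13a, chr7:45128731-45128760, minus strand: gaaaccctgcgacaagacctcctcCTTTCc
Rps24, chr14:24490663-24490692, plus strand: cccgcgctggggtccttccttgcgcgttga
Rpl38, chr11:114668565-114668594, plus strand: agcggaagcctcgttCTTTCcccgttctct
Rplp2, chr7:141447636-141447665, plus strand: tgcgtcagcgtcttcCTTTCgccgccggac
Fau, chr19:6057932-6057961, plus strand: tgcgcgcccccacttcttcctCTTTCttga

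CTTTC on the gene's strand, from 10 bases before to 15 bases after the start, was present in 14 of 60 ribosomal protein promoters with an entry (23.3%) and in 302 of 11768 promoters of all measured genes (2.57%). On the other strand it was in 3.33% and 2.14%. It was in 3.07% of promoters of the shortest 20% of genes, in 2 of 10 of other genes of the pyrimidine tract class and in 0 of 68 of mitochondrial ribosomal proteins. The Rps24 window does not hold these letters, although its level differed by more (1.89) than that of Rpl13a (1.41). A match is a description of the letters and not of translation, which was not measured.

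Other translation genes of the pyrimidine tract class followed less far. Of 16 measured, 13 were higher and 1 lower, with a median of 0.67. Eef1a1, the elongation factor that delivers aminoacyl-tRNA, was at 12.04, 12.06 and 11.96 against 11.15, 11.45, 11.60 and 11.32. Some longer members of the class did not follow. Eef2, the translocation factor, overlapped (-0.13), as did Pabpc1, the polyA binding protein (-0.14), and Eif4b, an initiation factor, was lower (-0.68). Naca, also of this list, was higher (1.36) although its longest annotated transcript has 7034 bases.

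Of 77 mitochondrial ribosomal proteins, which translate the messengers of the mitochondrial genome, 73 were higher and 1 was lower, with a median of 0.92. Mrps33 differed by 1.31 and Mrpl12 by 1.14, and Mrps2 was the lower member (-0.35). Of 84 nuclear genes of the respiratory chain, 79 were higher and 2 were lower, with a median of 1.31. Ndufa2, a small subunit of complex I, was at 8.19, 7.90 and 7.36 against 5.53, 5.97, 6.09 and 6.37. Atp5e, of ATP synthase, differed by 2.10 and Cox4i1, of cytochrome c oxidase, by 1.34. Members with longer transcripts behaved otherwise. Atp5a1, the alpha subunit of ATP synthase, overlapped (0.05), and Sdha and Ndufs1, large subunits of complexes II and I, were both lower (-0.30 each).

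The 13 respiratory chain genes encoded by the mitochondrial genome did not move with the nuclear ones as a block. Of them 6 were higher and 2 lower, with a median of 0.53. The share of counts in these 13 genes was 7.29% to 8.65% in the 3 libraries. It overlapped the 4.79% to 8.63% of the other 4 and the 4.81% to 8.52% of GH males. The short mt-Nd3 was at 10.80, 10.66 and 10.22 against 8.59, 8.17, 9.27 and 8.28, and mt-Co2 differed by 1.22. The longer mt-Co1 overlapped, at 13.37, 13.95 and 13.98 against 13.71, 13.86, 14.59 and 13.75. mt-Nd4l went the other way, at 6.64, 7.11 and 7.54 against 8.97, 8.92, 9.87 and 8.56; it overlaps mt-Nd4, so how reads were divided between them is uncertain.

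The protein degradation and RNA processing machineries with short genes were also higher. Of 37 proteasome subunits 34 were higher and 0 lower (median 0.92). Psmb4, of the proteolytic core, was at 8.54, 8.50 and 8.23 against 7.0, 7.29, 7.32 and 7.54, while Psmd2, a large subunit of the regulatory particle, overlapped at 0.12. Of 22 Sm and LSm proteins, the rings that hold spliceosomal and decay RNAs, 18 were higher and 0 lower (median 1.09), with Snrpd2 at 8.29, 7.98 and 7.68 against 5.78, 6.25, 6.33 and 6.5. Of 18 antioxidant and iron storage genes 17 were higher and 0 lower (median 1.08), among them Fth1, the ferritin heavy chain (1.0), and Gpx4, which reduces lipid peroxides (1.52). Cat, the catalase gene with a longer transcript, was at 5.46, 5.52 and 5.55 against 5.47, 5.26, 5.73 and 5.54. SR and hnRNP splicing factors, a list added after values had been seen, were mixed, with 14 of 43 higher and 9 lower (median 0.12).

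Heat shock genes divided. Of 18, 8 were higher and 3 lower (median 0.25). Hsp90aa1, the inducible cytosolic HSP90, was at 11.75, 11.32 and 10.97 against 10.15, 9.78, 9.88 and 10.20, and all 8 GH males lay between 9.61 and 10.20. Hspe1, the mitochondrial co-chaperonin, differed by 1.41. The stress-induced HSP70 genes Hspa1a and Hspa1b were lower (-0.80 and -0.86), as was Hsph1 (-0.36); Hspa1a and Hspa1b are near-identical copies, so each value is uncertain.

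Several lists of neuronal genes with long transcripts had medians well below that of all genes. Of 14 active zone scaffolds, which organise transmitter release, 14 were lower (median -0.86). Bsn, the giant scaffold bassoon, was at 7.5, 7.70 and 7.69 against 9.04, 9.36, 8.68 and 8.35, and Unc13a, which primes vesicles, differed by -1.16. Of 43 voltage-gated channels 29 were lower and 0 higher (median -0.74). Cacna1a, the P/Q-type calcium channel, was at 6.28, 6.48 and 6.38 against 7.44, 7.43, 6.98 and 7.42. The sodium channels Scn8a and Scn2a overlapped between the groups (-0.29 and 0.37).

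Of 7 spectrins and ankyrins, which form the membrane skeleton, 6 were lower (median -1.33). Sptan1, alpha-II spectrin, was at 7.97, 8.18 and 8.52 against 10.03, 9.82, 9.36 and 9.47, below all GH males (9.40 to 9.85). Ank3, ankyrin G of the axon initial segment, overlapped at 0.23. Of 48 kinesins and dyneins, the microtubule motors, 20 were lower and 10 higher (median -0.15). Kif1a, a motor of synaptic vesicle precursors, differed by -1.50.

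Postsynaptic and receptor lists were lower in most of their called members. Of 18 postsynaptic scaffolds 10 were lower and 1 higher (median -0.55). Dlg4, the PSD-95 gene, was at 9.20, 9.54 and 9.66 against 9.82, 10.21, 9.90 and 9.97, and Baiap2 was the higher member (0.66). Of 22 glutamate receptor subunits 13 were lower and 1 higher (median -0.61). Gria1 and Grin1, subunits of AMPA and NMDA receptors, differed by -0.71 and -0.65. Gria2, the AMPA receptor subunit that limits calcium entry, was the exception, at 10.11, 9.94 and 9.59 against 9.32, 9.05, 8.98 and 8.91, although its longest transcript has 6955 bases.

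The synaptic vesicle and SNARE list was nearer to the median of all genes. Of 18, 8 were lower and 2 higher (median -0.11). Cplx2, a complexin that clamps and promotes vesicle fusion, was among the higher members (0.56), and Snap25 and Syp overlapped (-0.15 and 0.27). Of 12 calmodulin and small calcium regulator genes 6 were higher and 0 lower (median 0.29), among them Nrgn, neurogranin (0.75). Of 23 clustered protocadherins, which give neurons a surface identity and share parts of their sequence, 14 were lower and 1 higher (median -0.55), and the higher one was Pcdhgc5 (0.82). Their summed level was 494 to 519 CPM in the 3 libraries, 292 to 514 in the other 4 and 279 to 372 in GH males, so the sum did not follow the median.

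Chromatin regulators were lower, and less so than other genes of their length. Of 36, 23 were lower and 2 higher (median -0.53). Chd5 differed by -0.52 and Smarca2, an ATPase of the BAF complex, by -0.32. Chd7, a chromatin remodeller with a transcript of 10216 bases, was higher at 5.81, 5.44 and 4.84 against 4.35, 4.51, 4.34 and 4.46, and so was Crebbp, a histone acetyltransferase (0.53). Of 30 histone genes 13 were higher and 1 lower (median 0.45), with H3f3a at 1.18; polyA selection captures few of the replication-dependent histone messengers.

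**Figure D4:**
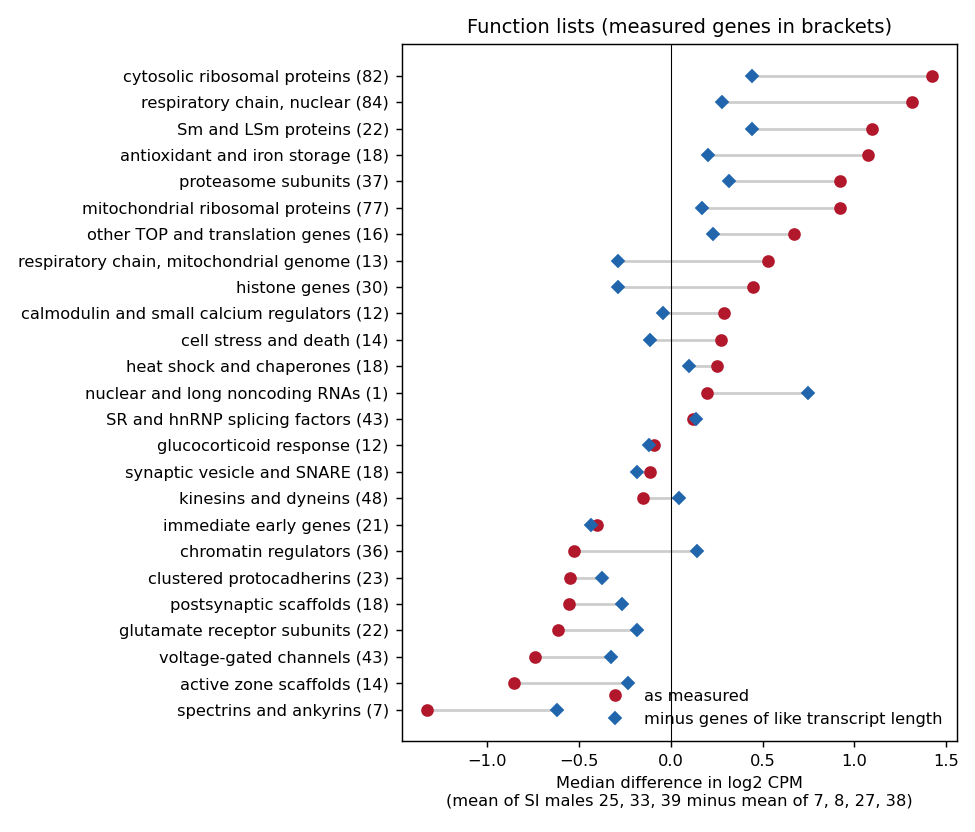
Median difference in log2 CPM (x axis, mean of SI males 25, 33 and 39 minus mean of SI males 7, 8, 27 and 38) for each function list, with the number of measured genes in brackets. Circles are the difference as measured and diamonds the difference minus that of genes of like transcript length; cytosolic ribosomal proteins go from 1.42 to 0.44 and active zone scaffolds from -0.86 to -0.23.

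Most group medians lay nearer to 0 once genes of like length were taken as the reference. After subtraction of the smoothed difference of genes of the same length, the median of ribosomal proteins was 0.44, of Sm and LSm proteins 0.44, of proteasome subunits 0.32, of nuclear respiratory chain genes 0.28 and of mitochondrial ribosomal proteins 0.17. The medians of spectrins and ankyrins (-0.62), protocadherins (-0.37), channels (-0.32), postsynaptic scaffolds (-0.27) and active zone scaffolds (-0.23) remained below 0. The median of a function list changed side for chromatin regulators (0.14), kinesins and dyneins (0.04), genes of the mitochondrial genome (-0.29), histone genes (-0.29), calmodulin and small calcium regulators (-0.04) and cell stress and death (-0.11). The trend with length and then the remaining trend with GC content were removed from each library, each by its own curve. An effect of GC content that depends on length is not removed in this way. After this 3422 genes were still higher (23% of 14863) and 3432 lower (23.1%). Against that background 65 of 82 ribosomal proteins were higher and 2 lower, and 54 of 84 nuclear respiratory chain genes were higher and 11 lower. Of 37 proteasome subunits 30 were higher and 0 lower, whereas of the mitochondrial genome 0 were higher and 10 lower. Active zone scaffolds were 0 higher and 7 lower of 14, channels 4 and 17 of 43, and protocadherins 1 and 10 of 22. Spectrins and ankyrins were 2 higher and 4 lower of 7. Postsynaptic scaffolds were 5 higher and 6 lower of 18, and glutamate receptor subunits 5 and 7 of 22, so these 2 lists were no longer mostly lower.

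Genes that went against their annotated length were found at both ends. In the longest 20% of genes 160 of 3026 genes were higher and 1886 lower, and in the shortest 20% 109 of 3030 were lower and 2036 higher. Pura, a DNA- and RNA-binding protein of neurons, was at 8.28, 8.10 and 7.41 against 6.42, 6.44, 6.43 and 6.90. Luc7l3, a splicing factor, differed by 1.56, Naca, of the nascent chain complex, by 1.36 and Eif5b, an initiation factor, by 1.32. Mrpl13, a mitochondrial ribosomal protein, differed by 1.27. Length here is that of the longest transcript in an older annotation. A gene may use a shorter one, or a longer one that the annotation lacks. Among genes annotated as short, mt-Nd4l had the largest negative difference (-1.98), followed by Shisa9, an AMPA receptor auxiliary protein (-1.0), and Tmem132b (-0.95). Next were Rtn4rl2, a Nogo receptor relative (-0.92), and Cacng8, a further AMPA receptor auxiliary subunit (-0.90). Whether these 5 have longer transcripts in use was not tested.

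Among named genes with a mean of at least 5 log2 CPM, the largest negative differences exceeded those of genes of like length. The genes here and in the next paragraph were picked for the largest differences without overlap. That choice favours values beyond those of like-length genes and of GH males, so these are descriptions. Gabrb2, a subunit of GABA-A receptors, was at 0.81, 1.91 and 2.54 against 6.08, 6.25, 5.79 and 4.56, with GH males at 5.58 to 6.43. Adcy9, an adenylyl cyclase, was at 2.27, 2.34 and 3.25 against 6.15, 6.04, 5.45 and 5.08. The groups were more than 1.5 log2 units apart in both genes. Against genes of like length the differences were still -3.24 and -2.62. Gse1 (-2.65), Atp2b3, a plasma membrane calcium pump (-2.52), Ptprn2, a protein of dense-core vesicles (-2.31), Gas7 (-2.27), the teneurin Odz3 (-2.18), Prepl (-2.09) and Pkd1, polycystin 1 (-2.07), were also among the 10 with the largest negative difference, and all 10 were below all 8 GH males.

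On the positive side Rps27rt (2.24), Atp5e (2.10), mt-Nd3 (1.98), the spliceosomal Lsm7 (1.94), Tmem256 (1.91), Rps24 (1.89), Pdcd5 (1.83), Ndufa2 (1.83) and Rps27a (1.8) were above all 8 GH males in all 3 libraries. The largest positive difference among named genes with a mean of at least 5 log2 CPM, 4.10 in Ttr, did not separate the 3 libraries from GH males. Ttr, transthyretin, is made by the choroid plexus, and was at 11.98, 11.86 and 11.02 in the 3 libraries, at 10.46 and 10.98 in SI males 27 and 38, and at 4.11 and 4.53 in SI males 7 and 8. GH males ranged from 4.38 to 11.03, so the difference turns on 2 of the 4 compared libraries. The summed level of the 10 choroid plexus markers was 2545 to 4751 CPM in the 3 libraries, 168 to 2735 in the other 4, and 1 of 10 was without overlap.

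**Figure D5:**
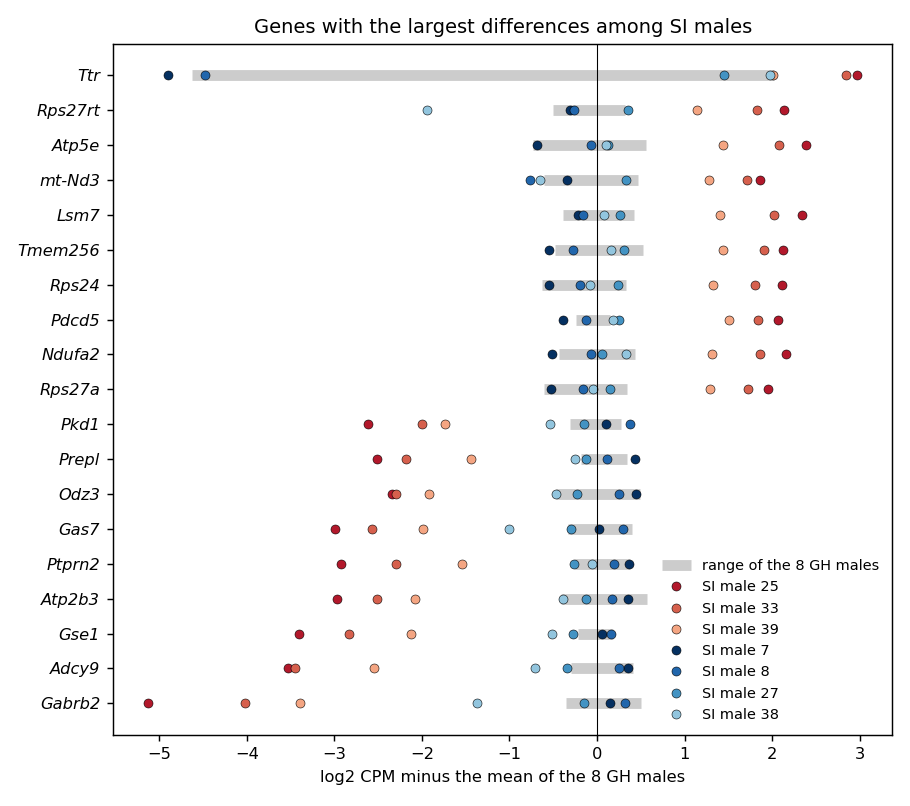
Log2 CPM minus the mean of the 8 GH males (x axis) for genes among the 10 with the largest positive and the 10 with the largest negative difference (y axis), with a point for each of the 7 SI males and a grey bar for the range of the GH males. In 9 of the 10 positive genes, all but Ttr, the 3 libraries lie above all GH males, and in the negative genes plotted they lie below, with SI male 25 farthest and SI male 39 nearest.

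Markers of hippocampal cell types did not move as blocks. In whole tissue, fewer cells of a type and less RNA per cell cannot be told apart. Neuron markers were 0 higher and 2 lower of 10 (median -0.05), with a summed level of 5888 to 5943 CPM in the 3 libraries and 5871 to 7003 in the other 4. Astrocyte markers were 2 higher and 3 lower of 10 (median 0.07), endothelial markers 3 and 3 of 10 (0.16), pericyte and smooth muscle markers 2 and 1 of 7 (0.40), and interneuron markers 5 and 5 of 10 (0.12). Within the interneuron list the short Sst and Cck, which encode neuropeptides, were higher (0.87 and 1.11) and the longer Gad1, which makes GABA, was lower (-0.60).

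Microglia and blood lists had medians above that of all genes. Of 10 microglia markers 7 were higher and 0 lower (median 0.86, and 0.25 against genes of like length), summing to 646 to 752 CPM in the 3 libraries and 394 to 479 in the other 4. Cx3cr1, the fractalkine receptor, was at 7.25, 6.93 and 6.42 against 5.64, 5.61, 5.84 and 5.80. Of 10 oligodendrocyte markers 4 were higher and 0 lower (median 0.21). Mbp, the myelin basic protein gene, overlapped (0.05). All 5 globin and blood genes were higher (median 1.56, and 0.42 against genes of like length), with Hbb-b1 at 8.94, 8.85 and 8.88 against 6.79, 6.76, 7.55 and 7.51. No blood or microglia marker was at 0 counts in any SI male. The part of blood or microglial RNA in the other differences was not tested.

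Most markers of precursor cells and of granule cells were lower. Of 7 oligodendrocyte precursor markers 5 were lower and 1 higher (median -0.70), of 8 dentate granule markers 5 were lower and 1 higher (-0.65), of 6 CA1 markers 3 were lower and 1 higher (-0.51), and of 7 CA3 markers 1 was lower and 1 higher (-0.02). The summed precursor level overlapped, at 725 to 795 CPM in the 3 libraries and 716 to 861 in the other 4. That of granule cell markers was 344 to 391 and 469 to 561 CPM. Against genes of like length the medians were -0.50 for precursor and -0.37 for granule cell markers. Nptx1, a neuronal pentraxin of the CA3 list, differed by -1.19. Markers of neighbouring regions showed few calls, with 1 of 8 thalamus markers lower and 0 higher (-0.55), and 2 of 9 striatum markers higher and 1 lower (-0.13).

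Stress and activity genes went both ways. Of 21 immediate early genes, which respond to neuronal activity, 6 were lower and 1 (Ier2, 0.62) higher, with a median of -0.40. The share lower, 28.6%, was near the 29.2% of all genes, and the share higher, 4.76%, was below their 27.5%. Egr1 was at 5.66, 6.05 and 6.26 against 6.98, 7.07, 6.29 and 6.53, and Arc overlapped at 4.99, 5.81 and 6.30 against 6.84, 7.32, 6.06 and 6.30. Of 12 glucocorticoid response genes 3 were higher and 4 lower (median -0.09), shares of 25% and 33.3% that were near those of all genes. Klf9, a glucocorticoid-induced factor, differed by 0.85, Nr3c2, the mineralocorticoid receptor, by -0.79 and Nr3c1, the glucocorticoid receptor, by -0.02. Of 14 genes of cell stress and death 5 were higher and 1 lower (median 0.28), with Bax, a mitochondrial death effector, at 1.02 and Atf4, of the integrated stress response, at 0.48. Snhg11, the 1 gene of the long noncoding list in the table, overlapped between the groups (0.20).

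A few genes were all or none. There were 8 genes with 0 counts in SI males 25, 33 and 39 and at least 20 counts in each of the other 12 males, and 0 genes with 0 counts in SI males 7, 8, 27 and 38 and at least 20 counts in the other 11. Zxda, an X-linked zinc finger gene with near-identical copies, had 0 counts in the 3 libraries and also in SI female 53, and 168 to 377 in GH males. Pnp, which encodes purine nucleoside phosphorylase and has a close copy, had 0 counts against 132, 38, 253 and 104. The others were the gene models Gm6741, Gm9797, Gm7367 and Gm6505 and 2 identifiers without a name. In the other direction Cldn22, a claudin, had 84, 62 and 39 counts in the 3 libraries and at most 3 in any of the other 12 males.

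The largest difference of all was in ENSMUSG00000101249, an identifier that the tables used here do not pair with a name. It held 179221, 145236 and 59544 counts in SI males 25, 33 and 39 (6998, 6047 and 3166 CPM). SI males 7, 8, 27 and 38 had 3, 2, 35 and 0 counts, and GH males 2 to 85. The next highest library of the series was SI female 53, with 4936 counts (115 CPM), and all other females had 8 to 77 counts. SI female 53 and GH female 78, the next highest at 2.14 CPM, also had the steepest negative length slopes among females, -0.17 and -0.15. In GH males no such order was seen. Another unnamed identifier, ENSMUSG00000102070, switched without regard to these libraries: it had 0 counts in 17 of the 30 libraries, the 3 among them, but 4285 and 11680 counts in SI males 8 and 38 and up to 32741 in GH males.

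Outside SI males, the mean level of ribosomal proteins was compared with the length slope computed without the ribosomal protein genes. In GH males Pearson's r was -0.89 over 8 libraries (permutation p = 0.00226, adjusted over 3 groups 0.00339) and Spearman's rho was -0.90 (p = 0.00456, adjusted 0.00685). In SI females r was -0.98 over 8 libraries (exact permutation p = 2.48e-05, adjusted 7.44e-05) and rho was -1.0 (p = 4.96e-05, adjusted 0.000149). In GH females r was -0.87 over 7 libraries (exact permutation p = 0.0155, adjusted 0.0155) and rho -0.79 (p = 0.0480, adjusted 0.0480). Without the 2 libraries farthest from the median slope, r was -0.91 in GH males and -0.96 in SI females (exact permutation p = 0.00556 and 0.00139), but -0.59 in GH females (exact permutation p = 0.30), where the relation rests on those 2. Ribosomal protein genes are short themselves and come from the same libraries as the genes that give the slope, so the measures are not independent. The slopes of these 23 libraries spanned -0.17 to 0.12, far less than the -0.50 to -0.40 of the 3.

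For the housing comparison the 3 libraries are 3 of 7 on one side. In an edgeR quasi-likelihood fit of SI against GH males with 2 surrogate variables, 0 genes were higher (0%) and 0 were lower (0%) in SI at an adjusted p under 0.05, 2059 had an unadjusted p under 0.05, and DESeq2 with the same surrogate variables called 44 (15 higher, 29 lower). The first surrogate variable, estimated from the counts, was 0.60, 0.52 and 0.34 in SI males 25, 33 and 39 and between -0.26 and -0.03 in the other 12 males. All 3 being SI animals, this term and housing cannot be fully told apart. Sample weights from limma, which are low for libraries that deviate from the fit, came from a fit of housing without surrogate variables. They were 0.152, 0.206 and 0.352 for the 3 and 0.611 to 4.07 for the other 12. With them 0 genes were called. P-values here and for the correlations treat the mice of a group as independent. GH mice shared cages, and cage was not part of any fit.

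Without the 3 libraries, 4 SI males against 8 GH males gave 0 genes higher (0%) and 1 lower (0.00616%), and 1022 had an unadjusted p under 0.05. That fit used 4 surrogate variables, many for so few animals. The 1 call was ENSMUSG00000102070, whose counts went from 0 to 11680 among these 4 SI males and from 0 to 32741 among GH males. With no surrogate variables the same animals gave 0 calls by edgeR, with 545 genes at an unadjusted p under 0.05. The fit of 7 males was unstable to single libraries: without SI male 27 it called 968 genes higher and 1445 lower, without SI male 38 it called 17 and 111, and without SI male 8 it called 1 and 0. Leaving out any other single male gave 0.

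In females, where no library had such a slope, edgeR with 3 surrogate variables called 154 genes higher (0.961%) and 470 lower (2.93%) in SI. Of 82 ribosomal proteins 0 rose and 11 fell, and of 13 genes of the mitochondrial genome 13 fell. Without surrogate variables 0 genes were called in females, with 1875 at an unadjusted p under 0.05.

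The length slope and the ribosomal protein level chose the 3 libraries, so their values by housing are given as a description with no test. The mean slope was -0.20 ± 0.26 (SD, n = 7) in SI males and 0.00 ± 0.07 (n = 8) in GH males, a difference of -0.20. The mean ribosomal protein level was 7.89 ± 0.77 in SI males and 7.41 ± 0.26 log2 CPM in GH males. In females SI minus GH was -0.0074 for the slope and -0.15 for ribosomal proteins. Whether the composition of the 3 libraries came with RNA quality, dissection or the animals was not tested, since no integrity value or dissection record per library was used here. Because all 3 are SI males, the composition and housing cannot be told apart in these animals. Of the other SI males, 38 (slope -0.13) lay just below the GH male range of -0.10 to 0.12. SI male 7 (0.13) lay just above that range, and SI males 8 and 27 lay within it.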

How the data were processed

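PolyA-selected RNA from 30 mouse hippocampi was sequenced by the authors in paired ends. Per the labels, reads were trimmed with Trimmomatic 0.39, quantified with Salmon 1.8.0 and tested with DESeq2 1.24.0, with builds GRCm39 and mm39 named in the submitters' processing notes. The deposited table holds whole-number counts per Ensembl gene for 17477 genes, each with at least 100 counts in all; the annotation release is not given in the sources used here. No correction for RNA integrity was applied.

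The libraries to describe, and the gene lists, were chosen with earlier results of these data known. Symbols, transcript lengths and GC content came from a reference annotation of an older build and matched 94.1% of genes; its coordinates were not used. Promoter windows came from RefSeq on GRCm38.p6. Length was that of the longest annotated transcript. Log2 CPM used edgeR 4.0.16 with TMM factors and a prior count of 2, after filterByExpr (minimum count 10, total 15). The difference of genes of like length was a lowess curve (span 0.3) on log2 length.

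Housing was tested per sex with edgeR's quasi-likelihood test (R 4.3.3) on surrogate variables from sva 3.50.0 (rounded to 4 decimals), with Benjamini-Hochberg adjusted p under 0.05 as the threshold. limma 3.58.1 gave sample weights, and DESeq2 1.42.0 was an alternative. Correlations over animals were tested by exact permutation, on slopes computed without ribosomal protein genes; tests of slope and ribosomal protein level by housing are not given, since these values chose the libraries. The procedures were tested on simulated data. Named genes were the 10 with the largest difference in each direction without overlap and with a mean of at least 5 log2 CPM in males, the 5 that went most against their length at each end, the 3 most abundant members of each list, members of 5 or fewer against the direction of their list, and cell type markers; other genes named in the text were chosen after their values were seen. Alternatives were other scalings and filters, removal of the length and GC trend, other covariates, and leaving out animals. Values of a few genes that these rules would name are not reported here.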

Additional observations from a re-analysis of the deposited data

Results flagged for a closer look

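Of 83 values tested for an animal far from the rest of its group, 3 stood apart by Dixon's criterion, where chance alone flags about 1 in 20 groups. GH female 78 had 20.4% of its counts in the longest 20% of genes, with the next GH female at 23.9%. SI female 53 held 115 CPM of ENSMUSG00000101249, the unnamed identifier that was abundant in SI males 25, 33 and 39, and the next SI female held 0.884 CPM. GH female 78 held 2.14 CPM of it and the next GH female 0.849 CPM.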

How the results depend on the processing

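No paired analysis was possible because animal numbers differ between all groups. The 3 libraries are among the shallowest, and the part of depth was not tested.

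Leaving out 1 SI male at a time gave 4505 to 5188 genes higher and 4761 to 5460 lower without overlap, by construction more than with all 7, a slope difference of -0.50 to -0.42, and 13 function lists above the median of all genes each time. With the median transcript length of a gene in place of the longest, the slope difference was -0.31. Removal of the length and GC trend turned the list medians of the mitochondrial genome (-0.64), kinesins and dyneins (0.0434), chromatin regulators (0.17), histones (-0.24), cell stress and death (-0.0394) and interneurons (-0.37); 22 other list medians moved and 12 of 40 did not. Scaling on total counts alone moved 7 of 40 list medians, DESeq2's size factors or no filter moved 0.

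For housing in males, DESeq2 called 15 genes higher and 29 lower, the fit without SI males 25, 33 and 39 called 1 lower, and leaving out 1 animal gave 0 to 968 higher and 0 to 1445 lower. In females DESeq2 called 412 and 851, no filter 262 and 742, no surrogate variables 0 and 0, the digit in the labels in their place 0 and 0, and leaving out 1 animal 12 to 536 higher and 76 to 892 lower. The female count of 624 moved by over 1.5 times without SI females 45 (146), 49 (288), 52 (1017), 63 (169), 68 (88) or 73 (290), and without GH females 46 (945), 48 (272), 54 (226) or 78 (1428). The cause was not tested.

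The slope and ribosomal protein level chose the 3 libraries, so the SI minus GH differences in males without those (0.0019 and -0.11) follow from the choice. Leaving out 1 male gave -0.25 to -0.15 and 0.32 to 0.64, with -0.25 and 0.64 without SI male 7 and a slope difference of -0.24 without SI male 8. In females the slope difference was -0.0318 to 0.0153 and that of ribosomal proteins -0.23 to -0.08; the slope difference turned positive without SI female 53 (0.0153), GH female 79 (0.0014) or GH female 71 (0.0083). The correlation in GH females was -0.59 without the 2 libraries farthest from the median slope and -0.61 without GH female 78, and leaving out 1 animal gave -0.97 to -0.82 in GH males, -0.99 to -0.96 in SI females and -0.97 to -0.61 in GH females.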

Other observations

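SI male 38 lay between the 3 libraries and the rest in some measures and not in others. Its length slope was -0.13, and its level of Gabrb2 was 4.56 log2 CPM, below the 5.58 to 6.43 of GH males and above the 0.81 to 2.54 of SI males 25, 33 and 39. It was also nearest to the 3 in 48.2% of the higher and 50.0% of the lower genes among the other 4. Its ribosomal protein share (1.90%) was below that of SI male 27 (1.94%), and its slope of level on GC content (0.26) was the highest of the 7 SI males, where the 3 libraries had -0.20 to -0.11.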
